A study of Mus musculus with 30 samples.

Results

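The genes described here rose with lipopolysaccharide (LPS), the bacterial cell wall component, but not with interferon alpha (IFNα), in the mouse dendritic cell line DC3.2. They were chosen from measured values. In 6 RNA-seq libraries without replicates, a gene had to reach 5 TPM (each transcript's share of its library, adjusted for length) in both LPS libraries. It also had to gain at least 0.8 with LPS on the log2(TPM + 1) scale in both genotypes, and gain less than 0.5 with IFNα in both. A gene is said below to have risen with LPS where it met these LPS limits, with no test behind it. Of 31427 gene symbols, 7325 reached the level, 209 of these (2.85%) rose with LPS in both genotypes, and 159 of the 209 stayed under the IFNα limit. A list of 24 well known inflammatory and related genes was left out by name, 9 of which met the thresholds (Il1a, Il1b, Tnf, Cxcl2, Ccl3, Ccl5, Junb, Cd80 and Cish), which leaves 150 members. Of these, 149 are protein coding and 1 is a long non-coding RNA in RefSeq.

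The 6 single libraries hold wild type (WT) and IRF2KO cells, each untreated (0 h) or treated for 2 h, either by IFNα or by LPS. The labels do not give the LPS dose. This set has no 2 h library with media alone, so each difference from 0 h also holds the time in culture. A separate set of 24 libraries forms 12 groups of 2, in which WT, IRF1KO, IRF2KO and DKO cells received for 2 h either media alone, 5000 U/mL of IFNα, or 2 ng/mL of interferon gamma (IFNγ). DKO stands for both factors, IRF1 and IRF2, targeted together. Titles of the replicated WT, IRF1KO and IRF2KO libraries read nosg, IRF1sg and IRF2sg, no LPS was used in that set, and nothing says whether a line is 1 clone or whether its 2 libraries come from separate cultures. The p-values therefore measure the spread between these libraries only.

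LPS is recognised by the receptor TLR4 with its partners MD-2 and CD14. Signalling through the adaptor MyD88 frees NF-κB transcription factors from their IκB inhibitors and activates MAP kinases, while a second adaptor, TRIF, leads to type I interferon. Both interferons act through the JAK-STAT pathway, IFNα mainly by way of the complex ISGF3. IRF1 and IRF2 are related DNA-binding factors of the interferon response. Many NF-κB target genes encode inhibitors of NF-κB itself, which end the response. In dendritic cells, LPS is known to start maturation, with new surface molecules, cytokines and changes in shape and movement.

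The cells carried part of the dendritic cell programme. Of 13 dendritic cell markers 10 reached 1 TPM, with Itgax between 9.18 and 12.2 TPM and Batf3 between 36.5 and 81.2 TPM in the single libraries, while Flt3 and Clec9a were listed at 0 there. All 8 macrophage and monocyte markers in the table reached 1 TPM, no lymphocyte or fibroblast marker did, and 1 of 4 neutrophil markers did. The summed macrophage markers, a list that holds the member Cd14, were 1145 and 1053 TPM at 0 h and 1478 and 1436 TPM with LPS in WT and IRF2KO. That rise came from Cd14, which the rule chose for rising: without it the sum was 932 and 914 TPM at 0 h and 946 and 854 TPM with LPS. Irf2 transcripts were lower in libraries labelled IRF2KO, with 17.8 ± 0.594 TPM (SD, n = 2) in media against 24.3 ± 1.22 TPM in WT, while Irf1 was not lower in those labelled IRF1KO (27.1 ± 4.999 against 21.1 ± 1.99 TPM). An edit need not lower a transcript, and the targeting itself is not visible in these levels. Between 9971 and 10186 genes reached 1 TPM in a single library and between 10911 and 11101 in a replicated one. TPM keeps no read totals, so depth is unknown. The 2 sets were quantified against different transcript entries, and levels are not compared between them.

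In the single libraries the LPS differences chose the members, so they are given as a description. The median gain with LPS was 1.42 in WT (from 0.81 to 4.96) and 1.40 in IRF2KO (from 0.80 to 5.40) on the log2(TPM + 1) scale. Over all 7325 genes it was −0.05 and −0.13. Of the 150 members, 28 gained at least 2 in both genotypes, 10 gained at least 3, and 39 gained less than 1 in at least 1 genotype. Starting levels ranged widely. Csf3 and Il12b were listed at 0 in both 0 h libraries, 44 members were under 5 TPM in both, and 12 had 100 TPM or more in both.

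**Figure D1:**
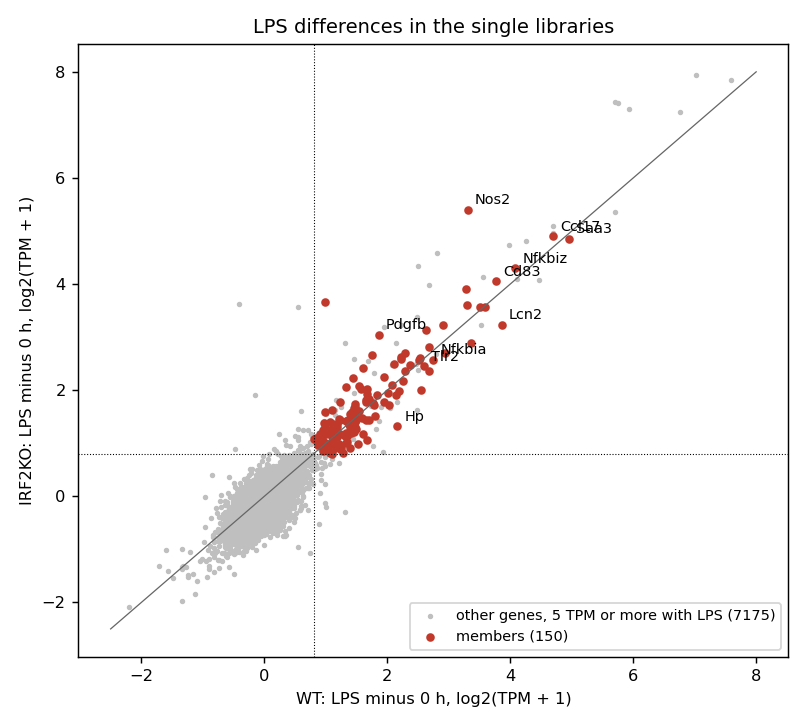
Each point is a gene with 5 TPM or more in both LPS libraries, placed by its LPS minus 0 h difference in log2(TPM + 1) in WT (x axis) and IRF2KO (y axis), 1 library per value. The 150 members (red) lie above 0.8 on both axes (dotted lines), most of them near the line of equal response. Nos2 is among the members above it. Grey points in the upper right are genes that also rose with IFNα or were left out by name.

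Saa3, Ccl17, Nfkbiz and Cd83 led the list by the smaller of the 2 differences. Saa3, which encodes an acute-phase protein, had 77.8 TPM at 0 h, 90.1 with IFNα and 2451 with LPS in WT. In IRF2KO it had 67.2, 62.6 and 1977 TPM. Ccl17, a chemokine that attracts T cells, went from 2.32 TPM at 0 h to 85.4 with LPS in WT and from 5.32 to 188 TPM in IRF2KO. With IFNα it stood at 2.84 and 3.77 TPM. Cd83, a surface marker of mature dendritic cells, had 4.82 TPM at 0 h, 4.83 with IFNα and 78.4 with LPS in WT, and 5.66, 5.30 and 110.0 TPM in IRF2KO. In each of the 3 genes the 0 h and IFNα libraries were close together and both LPS libraries were far above them.

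The 12 members with the largest smaller difference also include Csf3, Tnfaip3, Nos2, Zc3h12c, Traf1, Lcn2, Mmp13 and Nfkbie. Csf3, the granulocyte growth factor G-CSF, was listed at 0 in the 4 libraries without LPS and had 11.02 TPM with LPS in WT and 10.9 in IRF2KO. Lcn2, an iron-siderophore binding protein, had 8.80 TPM at 0 h, 6.95 with IFNα and 142 with LPS in WT, and 10.7, 8.16 and 109 TPM in IRF2KO. Mmp13, a collagenase, had 18.1, 20.2 and 143 TPM in WT and 8.04, 9.81 and 83.3 TPM in IRF2KO. The LPS gain of Mmp13 was thus similar in both genotypes (2.91 and 3.22) from different starting levels.

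The NF-κB and IκB family itself made up a large block. Of 15 family genes on a list drawn up for this work, 14 reached 5 TPM with LPS. Of those, 10 rose with LPS in both genotypes, and all 10 are members. None of the 24 genes left out by name stands in this list or in those below. The list median over the 14 was 1.40 in WT and 1.41 in IRF2KO. Among the DNA-binding subunits Nfkb1, Nfkb2, Rel and Relb are members. Rela, which encodes the p65 subunit, is not, with a gain of 0.31 in WT. The kinase genes Chuk, Ikbkb and Ikbkg are also no members (0.04, 0.04 and −0.31 in WT), while Ikbke, which encodes an IKK-related kinase, went from 9.01 to 63.0 TPM in WT and from 9.45 to 52.8 TPM in IRF2KO.

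Inhibitors rose from both low and high levels. Nfkbia, the classical IκBα, had 78.3 TPM at 0 h, 86.8 with IFNα and 531 with LPS in WT, and 94.7, 92.7 and 570 TPM in IRF2KO. Nfkbie, which encodes IκBε, had 1.36, 1.45 and 23.2 TPM in WT and 2.67, 1.64 and 26.0 TPM in IRF2KO. Nfkbiz, a nuclear IκB protein that some secondary response genes need, had 2.2, 2.11 and 53.1 TPM in WT and 2.75, 1.65 and 73.0 TPM in IRF2KO. For all 3 inhibitors each LPS library lay above the 4 others, and Nfkbib and Nfkbid rose less (1.07 and 1.46 in WT).

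RefSeq promoters (GRCm38.p6, from 250 bases before to 50 after a start) were found for 117 of the 150 members. They were searched on both strands for a form of the NF-κB motif, GGG and TTCC with any 3 bases between them. Of the 117 genes 17 (14.5%) held a match, against 7.70% of the 5676 genes with 5 TPM or more with LPS and 6.31% of all 27025 genes with a promoter. In the NF-κB and IκB list, 5 of 7 members with a promoter held one, and 3 of 11 in the feedback list described next. The 120-base windows before the start that hold the match are shown for these families, except Tank, and for Tlr2 and Sdc4. The families were picked since the motif recurs in the genes that encode NF-κB subunits and their inhibitors. Each is read 5′ to 3′ on the gene's strand, with capitals for the bases that match on either strand. Where a gene has several RefSeq starts, the window belongs to 1 of them. The other 8 genes with a match (Tank, Plaur, Upp1, Lacc1, Gstt4, Rnf145, Wdr59 and E230013L22Rik) are not shown.
Nfkb2 (chr19:46304617-46304736, plus strand): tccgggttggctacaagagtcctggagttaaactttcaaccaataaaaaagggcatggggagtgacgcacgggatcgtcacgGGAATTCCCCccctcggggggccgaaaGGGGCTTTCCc
Rel (chr11:23770996-23771115, minus strand): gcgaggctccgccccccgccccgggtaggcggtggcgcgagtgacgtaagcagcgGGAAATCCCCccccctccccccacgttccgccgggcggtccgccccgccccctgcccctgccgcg
Nfkbia (chr12:55492648-55492767, minus strand): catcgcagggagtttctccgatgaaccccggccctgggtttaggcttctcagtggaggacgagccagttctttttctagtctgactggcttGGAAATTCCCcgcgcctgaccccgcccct
Nfkbie (chr17:45555539-45555658, plus strand): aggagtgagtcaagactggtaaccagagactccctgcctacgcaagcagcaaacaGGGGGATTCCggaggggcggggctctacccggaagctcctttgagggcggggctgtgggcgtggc
Nfkbid (chr7:30422170-30422289, plus strand): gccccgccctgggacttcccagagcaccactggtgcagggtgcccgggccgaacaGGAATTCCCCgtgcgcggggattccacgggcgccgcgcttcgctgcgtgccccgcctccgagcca
Tnfaip3 (chr10:19015411-19015530, minus strand): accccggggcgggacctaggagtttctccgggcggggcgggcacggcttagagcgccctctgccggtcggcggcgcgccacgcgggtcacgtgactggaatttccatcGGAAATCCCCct
Tnip1 (chr11:54962941-54963060, minus strand): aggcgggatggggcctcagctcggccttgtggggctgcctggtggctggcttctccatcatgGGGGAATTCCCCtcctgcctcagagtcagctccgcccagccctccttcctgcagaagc
Tlr2 (chr3:83841717-83841836, minus strand): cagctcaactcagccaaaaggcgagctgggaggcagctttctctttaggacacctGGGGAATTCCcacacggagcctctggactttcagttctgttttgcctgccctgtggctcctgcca
Sdc4 (chr2:164443206-164443325, minus strand): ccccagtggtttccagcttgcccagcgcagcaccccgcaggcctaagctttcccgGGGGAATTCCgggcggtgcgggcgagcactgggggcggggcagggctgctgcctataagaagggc

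In Nfkb2 the window holds 2 matches, which begin 38 and 11 bases before the start. In Tnip1 they begin 58 and 56 bases before it and overlap, so that the capitals read as 1 run. The Nfkbia match begins 29 bases before the start and that of Tnfaip3 12 bases before it. Other motifs were searched in the same way. TGANTCA (AP-1) was in 11.97% of the 117 members, 5.92% of the genes with 5 TPM or more with LPS and 8.97% of all genes, and TGACGTCA (CRE) in 4.27%, 4.23% and 2.03%. A form of the interferon-stimulated response element, GAAA repeated after any 2 bases, was in 6.84%, 3.65% and 3.99%, and TTCNNNGAA, the core of the gamma-activated site (GAS), in 11.97%, 8.14% and 9.55%. Each motif was counted separately, so a stretch of bases could count for more than 1. A match is a description of the sequence, and a window without it says nothing about more distant sites.

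A list of NF-κB feedback and ubiquitin editing formed the next block. By its drafting it also holds genes that carry the signal, such as the MyD88 complex kinase gene Irak2. Of 29 listed genes, 25 reached 5 TPM with LPS, 16 rose in both genotypes and 13 are members. Their list medians were 1.09 in WT and 1.26 in IRF2KO. Tnfaip3, which encodes the ubiquitin-editing enzyme A20, had 0.74 TPM at 0 h, 0.57 with IFNα and 18.8 with LPS in WT, and 0.77, 0.57 and 19.96 TPM in IRF2KO. Traf1, an adaptor of TNF receptors, had 0.80, 0.11 and 16.4 TPM in WT and 0.31, 0.54 and 18.5 TPM in IRF2KO. Zc3h12c, a relative of the RNase Regnase-1, had 4.87, 4.98 and 57.0 TPM in WT and 3.89, 5.30 and 58.2 TPM in IRF2KO. These 3 genes had almost the same LPS level in both genotypes. Tnip1 and Tnip3, whose products bind A20, gained 2.26 and 2.52 in WT, and Tnfaip2 gained 2.07. The other members are Birc3, Irak2, Malt1, N4bp1, Tank, Tnfaip8 and Sqstm1. Map3k8, Ripk2 and Rnf19b also rose with LPS but are no members, since they gained at least 0.5 with IFNα in 1 or both genotypes.

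**Figure D2:**
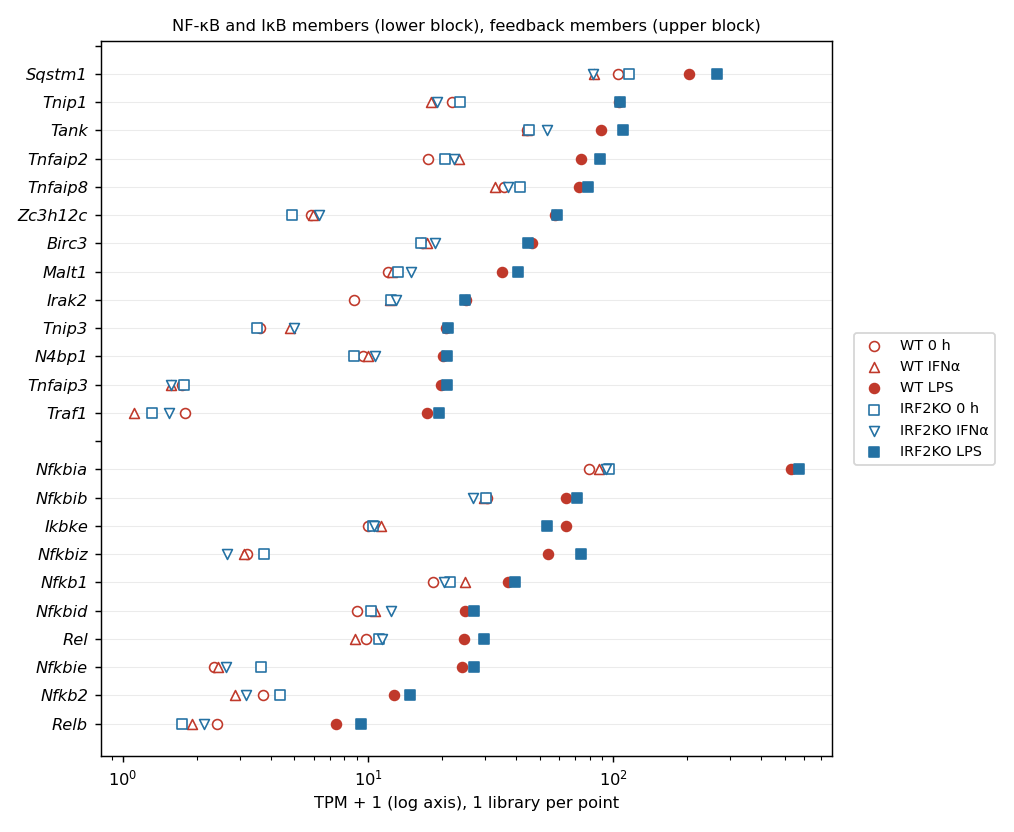
TPM + 1 on a log axis in each of the 6 single libraries for the 10 NF-κB and IκB members (lower block) and the 13 members from the feedback list (upper block). Filled symbols (LPS) lie to the right of the 4 open symbols (0 h and IFNα) in every row, with WT in red and IRF2KO in blue.

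Of the receptor side, 2 of 17 listed genes are members. Tlr2, the receptor for bacterial lipoproteins, had 122 TPM at 0 h, 115 with IFNα and 738 with LPS in WT, and 155, 134 and 854 TPM in IRF2KO. Cd14, the co-receptor that passes LPS to TLR4, had 212, 146 and 532 TPM in WT and 140, 119 and 583 TPM in IRF2KO. Tlr4 itself went the other way, from 75.6 to 42.4 TPM in WT and from 98.0 to 43.9 TPM in IRF2KO.

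Secreted factors were few among the members, in part because the most familiar ones were left out by name. Of 36 cytokines and growth factors 14 reached 5 TPM with LPS, 9 rose in both genotypes and 5 are members. Il12b, the p40 subunit of IL-12 and IL-23, was listed at 0 without LPS and had 5.16 TPM with LPS in WT and 7.74 in IRF2KO, close to the minimum of 5 TPM. Gdf15, a stress cytokine, went from 12.7 to 65.7 TPM in WT and from 8.19 to 58.9 TPM in IRF2KO. Tnfsf9, the ligand of 4-1BB, went from 11.4 to 38.7 TPM and from 10.3 to 22.8 TPM. Pdgfb had 0.97 TPM at 0 h and 6.14 with LPS in WT, and 0.79 and 13.8 TPM in IRF2KO. Of 22 listed chemokines and their receptors 6 rose, and only Ccl17 and Cx3cl1 are members (4 others also gained at least 0.5 with IFNα). That list does not hold Cxcl2, Ccl3 and Ccl5, which met the thresholds but were left out by name. They gained 7.02, 4.69 and 1.31 with LPS in WT. Cx3cl1, which encodes fractalkine, lies 26953 bases from Ccl17 on chromosome 8 and went from 3.11 to 8.68 TPM in WT and from 3.57 to 14.6 TPM in IRF2KO.

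The listed transcription factors of the AP-1, EGR and related families changed less. Of 40 listed genes 22 reached 5 TPM with LPS, and the 7 that rose in both genotypes are all members. Their gains in WT were between 0.81 and 1.66. Junb, left out by name and so not listed, met the thresholds with gains of 1.14 in WT and 1.54 in IRF2KO. Ets2 went from 16.7 to 55.1 TPM in WT and from 14.3 to 57.5 TPM in IRF2KO. Nfe2l2, which encodes the oxidative stress regulator NRF2, went from 136 to 283 TPM and from 106 to 247 TPM. Ier3, Cebpd, Klf7, Egr2 and Batf complete the group, which by the drafting of its list reaches beyond the AP-1 and EGR families. Only 2 of 18 listed NRF2 and oxidative stress genes are members, Sod2, the mitochondrial superoxide dismutase, and Slc7a11, the cystine transporter, while the list median was 0.00 in WT and 0.05 in IRF2KO.

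Genes from the lists of MAP kinase signalling and of mRNA control were present in small numbers. Of 26 genes of the MAP kinase list 7 rose and 5 are members: the phosphatases Dusp2, Dusp4 and Dusp16, the kinase Mapkapk2, and Gadd45b, a stress protein upstream of p38 and JNK. Their gains in WT lay between 1.09 and 1.40. Of 15 genes of mRNA decay and translation control, 4 rose and all 4 are members. Pde4b, a phosphodiesterase that breaks down cyclic AMP, had 13.6 TPM at 0 h, 8.81 with IFNα and 83.0 with LPS in WT, and 14.2, 10.2 and 92.1 TPM in IRF2KO. Pde4b and the small GTPase gene Rnd3 do not act on mRNA, and they stand in that list by its drafting. Btg2, an antiproliferative factor that binds the deadenylase complex, was lower with IFNα than at 0 h (10.8 and 5.31 TPM in WT, 10.99 and 5.92 TPM in IRF2KO) and higher with LPS (24.7 and 24.3 TPM).

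Survival genes included 3 copies of the anti-apoptotic gene Bcl2a1. Bcl2a1b went from 293 to 930 TPM in WT and from 325 to 1144 TPM in IRF2KO, and Bcl2a1a and Bcl2a1d gained 1.47 and 1.43 in WT. The copies are nearly identical, so reads could be split between them and the 3 are not independent. Nlrp3, the inflammasome sensor, went from 4.83 to 21.6 TPM in WT and from 4.36 to 24.4 TPM in IRF2KO, and Tnfrsf1b, TNF receptor 2, from 25.3 to 81.4 TPM and from 28.9 to 102 TPM. In all, 5 of 23 listed survival genes are members.

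The list of adhesion, migration and cytoskeleton genes, which also holds surface receptors and an endosome gene, gave a large block. Of 33 listed genes 22 reached 5 TPM with LPS, 15 rose and 14 are members, with list medians of 1.40 in WT and 1.99 in IRF2KO. Icosl, the ligand of the T cell costimulator ICOS, had 6.54 TPM at 0 h, 6.62 with IFNα and 56.7 with LPS in WT, and 7.68, 5.23 and 55.4 TPM in IRF2KO. Gpr84, a receptor for medium-chain fatty acids, went from 57.7 to 302 TPM in WT and from 53.8 to 306 TPM in IRF2KO. Sdc4, a heparan sulfate proteoglycan of focal adhesions, went from 154 to 727 TPM and from 141 to 871 TPM. Ehd1, which acts in endosome recycling, went from 17.7 to 86.7 TPM and from 14.6 to 92.5 TPM. Gpr84 lies 33616 bases from another member of the block, the integrin gene Itga5, on chromosome 15.

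Among metabolic genes 4 of 24 are members. Nos2, the inducible nitric oxide synthase, was listed at 0 at 0 h and with IFNα in WT and had 8.90 TPM with LPS. In IRF2KO it had 0.18 TPM at 0 h, 0.31 with IFNα and 48.8 with LPS. Arg2, the mitochondrial arginase, had 1.64, 1.64 and 11.96 TPM in WT and 1.05, 1.21 and 9.49 TPM in IRF2KO. The sugar transporter gene Slc2a6 and the uridine phosphorylase gene Upp1 gained 1.12 and 1.27 in WT. The epigenetic list added Kdm6b, an H3K27 demethylase, and Tet2 (0.99 and 1.47 in WT), out of 11 genes. None of 12 constitutive reference genes was a member, and their medians were −0.07 in WT and −0.02 in IRF2KO.

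The remaining 75 members stand in no list. Picked after their values were seen, they include Hcar2, the niacin receptor, which went from 36.7 to 171 TPM in WT, and Cybb, the NADPH oxidase subunit, which went from 13.7 to 55.8 TPM. Peli1, a ubiquitin ligase of TLR signalling, went from 5.30 to 16.1 TPM, and Spi1, which encodes PU.1, from 27.0 to 53.0 TPM. Cdc42ep2, an effector of the small GTPase CDC42, went from 7.75 to 54.8 TPM in WT and from 6.43 to 51.0 TPM in IRF2KO. The paired receptor genes Pilra, Pilrb1 and Pilrb2 lie next to each other on chromosome 5 and gained 1.39, 0.94 and 1.45 in WT, and similar sequences among them could share reads. The non-coding RNA gene E230013L22Rik overlaps the member Rab20 on chromosome 8 in part, and reads within the overlap cannot be assigned without strand.

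Members next to the thresholds show how the list depends on them. Zfp263, Batf and Gm6377 were just inside the LPS limit (0.80, 0.81 and 0.82), and Arl5b, Erich1 and Ticam1 just outside it (0.79, 0.79 and 0.78). Tnip3, Irak2 and Gadd45b were just inside the IFNα limit (0.50, 0.50 and 0.49 after rounding), and Bcl2l1, Gm2022 and Il1rn just outside it (0.52, 0.55 and 0.55). Rnd1, Spata13 and Il12b had 5.03, 5.09 and 5.16 TPM in the lower of the LPS libraries, against 4.95, 4.92 and 4.90 TPM for Zfp599, Zfp703 and Zc3h12a, which missed the minimum.

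The LPS gain of most members was similar in WT and IRF2KO, which the rule in part fixed in advance. It asked for a gain of at least 0.8 in both, so a gene whose gain was lost in IRF2KO could not be a member. The difference in gain, IRF2KO minus WT, had a median of 0.06 over the members and −0.10 over all 7325 genes, and these values come from single libraries with no replicate check. Its lower and upper quartiles were −0.14 and 0.22 over the members and −0.26 and 0.05 over all genes. The difference was above 0 in 87 members. It reached 0.5 upward in 13 and downward in 5. Shares of all genes past these limits were not counted, so the member counts are a description only. Among the upward ones were Nos2 (2.09), Pdgfb (1.19) and Slc7a11 (0.91), which are not the full set at the upper end. In the other direction Hp (haptoglobin) stood at −0.84, Lcn2 at −0.63, Tnfsf9 at −0.61 and Arl5c at −0.55. Hp went from 20.1 to 93.4 TPM in WT and from 34.0 to 86.3 TPM in IRF2KO, so that its smaller gain came with a higher start.

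The 24 replicated libraries took no part in choosing the members, and they ask whether interferon or the genotype moves these genes. There 146 members could be tested with limma, and Csf3, Il12b, Hcar2 and E230013L22Rik fell below the filter. Hcar2 and E230013L22Rik were listed at 0 in all 24 libraries. Since the sets were quantified against different transcript entries, that does not show that these genes were silent there. With IFNα, 1 of the 146 tested members rose in WT, IRF1KO and IRF2KO, and 0 rose in DKO, where 9 (6.16%, against 5.85% of all genes) had an unadjusted p under 0.05. Over all 11842 genes the shares called higher were 1.04%, 0.811%, 1.38% and 0.971%. No member fell in any of the 4 genotypes, and the shares of all genes called lower were 0%, 0.00844%, 0.00844% and 0.0422% (1.01% in either direction in DKO). In WT the median IFNα difference was −0.06 over the members and −0.06 over all genes.

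The gene that rose was Gadd45b, 1 of the 3 members next to the IFNα limit in the single libraries. It had 33.8 and 29.4 TPM in the WT media libraries and 50.8 and 46.2 with IFNα. In IRF1KO it had 36.0 and 34.9 in media and 59.7 and 50.4 with IFNα, in IRF2KO 26.5 and 27.0 against 46.9 and 39.2, and in DKO 30.3 and 30.1 against 40.2 and 41.9. All 8 IFNα libraries lay above all 8 media libraries, which held for 1.14% of all genes. The log2 differences were 0.60 ± 0.12 (SE, adjusted p = 0.018) in WT, 0.62 ± 0.12 (0.020) in IRF1KO and 0.66 ± 0.12 (0.0066) in IRF2KO. Each call was lost without any 1 of 3 of its 4 libraries: WT media replicate 2 or either WT IFNα library (adjusted p from 0.059 to 0.38), IRF1KO IFNα replicate 1 or either IRF1KO media library (0.11 to 0.42), and IRF2KO IFNα replicate 1 or either IRF2KO media library (0.053 to 0.19). With the replicate number as a block, 3 members rose in IRF2KO (1.8% of all genes), the others being N4bp1 (0.52, adjusted p = 0.0095) and Tet2 (0.50, 0.048), and in DKO N4bp1 rose (0.51, 0.015) while Ptger4 (−0.72, 0.025) and Igsf6 (−0.36, 0.049) fell (1.27% of all genes higher and 0.245% lower).

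IFNγ, for which the rule set no limit while it capped the IFNα gain, was called in more of them. It raised 3 of 146 tested members in WT, 6 in IRF1KO, 2 in IRF2KO and 3 in DKO, and lowered 0, 0, 0 and 1. Of all 11842 genes, 1.2%, 1.1%, 1.04% and 0.701% were called higher and 0.0591%, 0.0591%, 0.0929% and 0.076% lower. The replicate block moved these counts to 7, 12, 13 and 12 higher and 4, 3, 0 and 3 lower, with backgrounds of 1.74%, 1.57%, 1.82% and 1.29% higher and 0.194%, 0.194%, 0.236% and 0.363% lower. Across genotypes, all 8 IFNγ libraries lay above all 8 media libraries for 5 members, Cd83, Cdc42ep2, Irak2, Rnd3 and Tnfaip2 (1.19% of all genes), and below them for 0 (0.22% of all genes).

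Rnd3, an atypical small GTPase that loosens actin stress fibres, rose in all 4 genotypes. It had 7.33 and 7.57 TPM in WT media and 23.3 and 16.3 with IFNγ. The IRF1KO libraries had 8.78 and 8.42 in media against 25.7 and 24.8, the IRF2KO libraries 6.86 and 8.53 against 16.5 and 17.2, and the DKO libraries 10.4 and 9.74 against 18.3 and 21.6. IFNα left it between 5.85 and 9.87 TPM in the 8 libraries. The IFNγ differences were 1.28 ± 0.18 (adjusted p = 0.00051) in WT, 1.45 ± 0.18 (0.00019) in IRF1KO, 1.04 ± 0.18 (0.0046) in IRF2KO and 0.91 ± 0.18 (0.020) in DKO. The calls in WT and IRF1KO held without any 1 library, while those in IRF2KO and DKO were each lost in 3 of 4 such fits, all but those without IRF2KO media replicate 2 and without DKO IFNγ replicate 1 (adjusted p from 0.053 to 0.10 and from 0.12 to 0.20).

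Cd83, the maturation marker, had 2.86 and 2.67 TPM in WT media and 20.7 and 6.46 with IFNγ. In IRF1KO it had 3.61 and 2.48 against 18.4 and 10.02, in IRF2KO 2.93 and 3.22 against 20.2 and 13.2, and in DKO 4.32 and 3.55 against 21.9 and 18.7. Every IFNγ library was above every media library, but the 2 WT IFNγ libraries were far apart. The differences were 2.09 ± 0.45 (adjusted p = 0.030) in IRF2KO and 2.11 ± 0.45 (0.038) in DKO, both lost without any 1 of their 4 libraries (adjusted p from 0.071 to 0.43). In WT it was 1.76 ± 0.45 (0.086) and in IRF1KO 1.87 ± 0.45 (0.061), and both passed with the replicate block (0.0047 and 0.0031).

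Irak2, a kinase of the MyD88 complex, had 42.3 and 36.2 TPM in WT media and 75.04 and 72.2 with IFNγ, a difference of 0.89 ± 0.19 (adjusted p = 0.028). In IRF1KO it had 45.0 and 31.7 against 72.7 and 69.7 TPM (0.90 ± 0.19, 0.032). The WT call was lost without any 1 library (0.086 to 0.36), and the IRF1KO call without any but IRF1KO media replicate 1 (0.15 to 0.47). In IRF2KO and DKO the differences were 0.69 (0.15) and 0.65 (0.24), and both passed with the block (0.020 and 0.037). Gadd45b rose with IFNγ by 0.75 ± 0.12 in WT (0.0027), 0.73 ± 0.12 in IRF1KO (0.0042) and 0.72 ± 0.12 in DKO (0.0058). In IRF2KO it had 36.7 and 35.3 TPM with IFNγ against 26.5 and 27.0 in media. Of these calls the WT one was lost without WT IFNγ replicate 1 or WT media replicate 2 (0.051 and 0.076), the IRF1KO one without IRF1KO IFNγ replicate 1 or IRF1KO media replicate 2 (0.087 and 0.066), and the DKO one without DKO IFNγ replicate 2 or either DKO media library (0.070 to 0.084).

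Tnfaip2 showed a wide gap between its 2 libraries in most groups. It had 33.7 and 19.6 TPM in WT media and 79.4 and 57.5 with IFNγ, and 30.9 and 19.1 against 88.5 and 68.7 TPM in IRF1KO. Only the IRF1KO difference passed (1.64 ± 0.35, adjusted p = 0.032), and not without IRF1KO media replicate 2 or either IRF1KO IFNγ library (0.097 to 0.42). The WT, IRF2KO and DKO differences were 1.36 (0.099), 1.26 (0.16) and 1.46 (0.087). With the replicate block all 4 passed, with adjusted p of 2.1e-05, 3.8e-06, 5.9e-05 and 1.6e-05 for WT, IRF1KO, IRF2KO and DKO. Cdc42ep2 had 18.6 and 10.1 TPM in WT media and 51.1 and 24.3 with IFNγ, and 19.4 and 10.9 against 46.1 and 39.3 TPM in DKO. Its differences were between 1.30 in WT and 1.68 in IRF1KO, with adjusted p from 0.22 to 0.66 over the 4 genotypes. All 4 passed with the block, the WT one at an adjusted p of 0.00024.

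**Figure D3:**
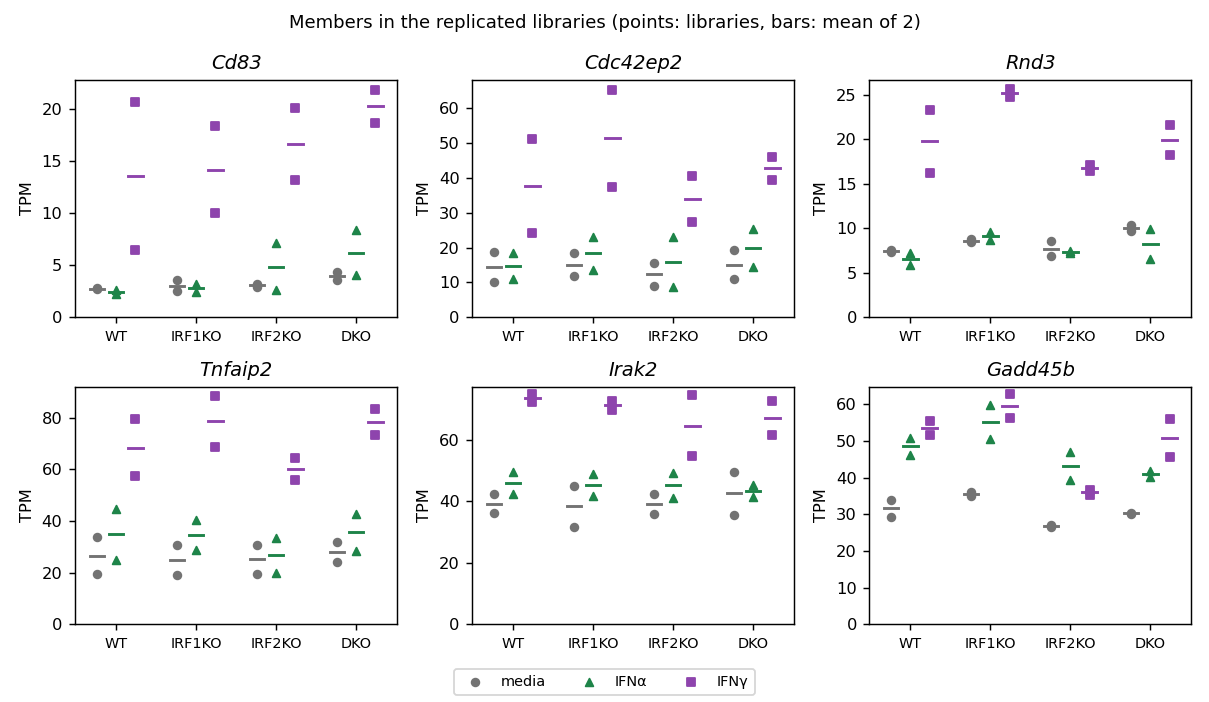
TPM (y axis) of 6 members in the 24 replicated libraries by genotype (x axis). Points are libraries, coloured by treatment, and bars are means of 2. For Cd83, Cdc42ep2, Rnd3, Tnfaip2 and Irak2 the 8 IFNγ libraries lie above the 8 media libraries, and for Gadd45b the 8 IFNα libraries do.

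Icosl rose by 0.76 ± 0.16 with IFNγ in IRF1KO (adjusted p = 0.024), from 3.84 and 4.23 to 7.44 and 7.57 TPM. Pdgfb rose by 0.80 ± 0.18 there (0.047), from 1.47 and 1.49 to 3.60 and 3.07 TPM. Both calls were lost without any 1 of the 4 libraries (Icosl 0.12 to 0.18, Pdgfb 0.13 to 0.40), and that of Pdgfb also with quantile scaling, a pseudocount of 5 or no filter. Cited2, a transcriptional coregulator, fell by 1.30 ± 0.23 on the log2 scale in DKO (adjusted p = 0.0095). It had 10.7 and 11.2 TPM in DKO media and 3.22 and 4.56 with IFNγ, and in WT 10.3 and 7.04 against 7.75 and 6.79 TPM. The DKO call was lost without DKO IFNγ replicate 1 or either DKO media library (0.084 to 0.15).

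Members called only with the replicate block in IFNγ came from several blocks. Itga5 rose in all 4 genotypes (0.66, 0.69, 0.70 and 0.68 in WT, IRF1KO, IRF2KO and DKO, with adjusted p from 0.011 to 0.018). Sdc4 rose in IRF1KO, IRF2KO and DKO (0.80, 0.86 and 0.95). Nfkbie (0.91 and 0.94), Kdm6b (1.31 and 1.17), Gdf15 (1.06 and 0.92) and Cx3cl1 (0.95 and 0.92) rose in IRF2KO and DKO, and Nfkbiz rose in IRF2KO (1.04, adjusted p = 0.030). Bcl2a1a fell in WT, IRF1KO and DKO (−0.45, −0.53 and −0.63), and Dusp4 and Cnksr3 fell in WT (−0.79 and −0.74) and IRF1KO (−1.17 and −0.71). Saa3 and Nfkbia, which LPS had raised strongly, were not called with IFNγ in any genotype. Saa3 had 15.01 and 9.94 TPM in WT media and 15.1 and 9.71 with IFNγ, and Nfkbia 106 and 76.4 against 141 and 94.6 TPM.

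IFNγ and IFNα were also compared directly in WT. The rule capped the IFNα gain and set no limit for IFNγ, so a lean of the members towards IFNγ could be in part built in. Of 146 members 2 were higher with IFNγ and 0 lower, against 0.414% and 0.355% of all genes, and with the block 9 and 2 (0.887% and 0.608%). Rnd3 was higher by 1.45 ± 0.18 (adjusted p = 0.00019), in every fit that left out 1 library. Icosl was higher by 0.97 ± 0.16 (0.0030), with 7.69 and 6.66 TPM against 2.90 and 3.46 TPM, and not called without replicate 1 of either group (0.071 in both). Pooled over genotypes, the 8 IFNγ libraries were all above the 8 IFNα libraries for 7 members, Icosl, Irak2, Rassf4, Rnd1, Rnd3, Spata13 and Tnfaip2 (0.557% of all genes), and all below for 1, Cited2 (0.583%). Cited2 ran from 10.4 to 14.2 TPM with IFNα and from 3.22 to 8.57 TPM with IFNγ.

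Few members were called for the genotype alone in media. There limma called 0 of 146 in IRF1KO against WT, where 3 (2.05%, against 2.58% of all genes) had an unadjusted p under 0.05 and 0% of all genes were called in either direction. In IRF2KO 1 fell and 0 rose, against 0.557% and 0.279% of all genes (0.836% in either direction), and in DKO 1 fell and 1 rose, against 0.532% and 0.228%. With the block the counts were 2 lower and 3 higher in IRF2KO (1.17% and 0.625%) and 1 lower and 5 higher in DKO (0.887% and 0.718%). Without the block, 10 members in IRF2KO (6.85%, against 7.34% of all genes) and 16 in DKO (11%, against 7.06%) had an unadjusted limma p under 0.05. The DKO difference was above 0 in 114 of 146 members, with a median of 0.23 against 0.06 over all genes. In IRF2KO it was above 0 in 81 members, with medians of 0.05 and −0.06.

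Arg2 was the gene that fell. Its WT media libraries had 19.2 and 14.7 TPM, those of IRF1KO 20.9 and 17.8, those of IRF2KO 4.68 and 3.60 and those of DKO 7.26 and 7.32. All 12 IRF2KO and DKO libraries lay below all 12 WT and IRF1KO libraries, at 3.60 to 8.74 against 13.4 to 20.9 TPM, a separation that 0.532% of all genes showed. The difference was −1.80 ± 0.21 (adjusted p = 0.00018) in IRF2KO, called without any 1 library, and −1.10 ± 0.21 (0.017) in DKO, lost without either DKO media library or WT media replicate 1 (0.14 to 0.28). In the single 0 h libraries Arg2 had 1.64 TPM in WT and 1.05 TPM in IRF2KO.

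Lacc1, a laccase-domain protein of macrophage metabolism, went the opposite way. It had 7.98 and 8.96 TPM in WT media, 8.96 and 8.26 in IRF1KO, 11.99 and 14.02 in IRF2KO and 16.6 and 18.2 in DKO. The 12 IRF2KO and DKO libraries ran from 11.1 to 18.2 TPM and the 12 others from 7.17 to 10.2 TPM, without overlap, as for 0.38% of all genes. The DKO difference was 0.96 ± 0.18 (adjusted p = 0.012) and was lost without any 1 of its 4 libraries (0.062 to 0.18). With the block, Slc15a3, an endolysosomal transporter, also rose in IRF2KO (0.77, adjusted p = 0.00084) and DKO (0.58, 0.0093), as did Slc2a6 (0.51, 0.018 and 0.60, 0.0060), while Tnfsf9 fell in IRF2KO (−1.14, 0.044). Both lines with IRF2 targeted were compared with the same WT libraries, so their results are not independent.

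**Figure D4:**
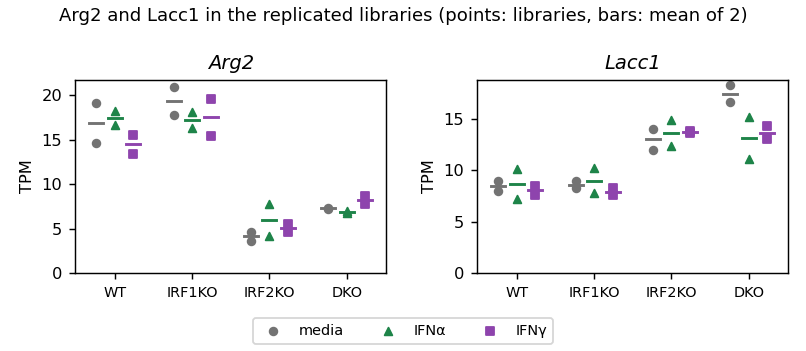
TPM (y axis) of Arg2 and Lacc1 in the 24 replicated libraries by genotype (x axis) and treatment (colour), with points for libraries and bars for means of 2. Arg2 is lower and Lacc1 higher in all 12 IRF2KO and DKO libraries than in the 12 WT and IRF1KO libraries.

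Whether the genotype changed the interferon response of a member was tested directly as an interaction. Limma called 0 of 146 members in each of the 6 tests (IFNα or IFNγ response of IRF1KO, IRF2KO or DKO minus that of WT), with and without the replicate block. An unadjusted p under 0.05 was found for 3, 2 and 0 members in the IFNα tests of IRF1KO, IRF2KO and DKO, and for 0, 1 and 4 in the IFNγ tests. Over all genes the shares at that unadjusted threshold were 1.71%, 3.33% and 1.4% for IFNα and 1.48%, 1.48% and 2.09% for IFNγ. The shares of all genes called in either direction were 0.0253%, 0.0676% and 0.0844% for IFNα and 0.0844%, 0.0338% and 0.0929% for IFNγ. For the IFNα test of IRF2KO the median over all genes was 0.14 and went to 0.02 with TMM scaling, so the median of 0.17 over the members is to be read against that shift.

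Many members also differed by the replicate number, which in the sample titles goes with 1 of 2 date-like codes. This was looked at after the data had been seen, and it is a description with no test. In 49 of 146 tested members (33.6%) the replicate 1 library was above the replicate 2 library in all 12 groups, against 4.51% of all 11842 genes. The reverse held for 2 members (1.37%), Bcor and Tnfsf9, against 5.03% of all genes. Averaged over the 12 groups, replicate 1 was higher in 116 of 146 members (79.5%) and in 48.4% of all genes. The median over the members was 0.26 on the log2 scale, from 0.12 to 0.46 in the single groups, and over all genes it was −0.01.

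Treatment and genotype were therefore also fitted within each replicate number, in a test added after the data had been seen. It used limma on 12 libraries with a genotype and a treatment term and no interaction (6 residual degrees of freedom), so each effect is an average over genotypes or treatments. The differently treated libraries of a genotype stand in for its replicates, and the genotypes stand in for replicates of a treatment. These p-values do not measure the spread between separately made lines. With IFNγ, 18 members rose and 3 fell in replicate 1 (1.87% and 0.498% of all genes), and 13 rose and 10 fell in replicate 2 (2.3% and 0.861%). The same 10 members rose in both, Cd83, Cdc42ep2, Gadd45b, Irak2, Itga5, Rnd1, Rnd3, Sdc4, Sod2 and Tnfaip2, and Cnksr3 and Dusp4 fell in both. The share of all genes called in both was not counted. It cannot exceed the smaller share of each pair, 1.87% higher and 0.498% lower. For Cd83 the differences were 2.27 ± 0.22 (SE, adjusted p = 0.00038) and 1.64 ± 0.16 (0.00027), and for Tnfaip2 1.28 ± 0.08 (2.4e-05) and 1.58 ± 0.08 (5.2e-06).

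With IFNα, 6 members rose and 0 fell in replicate 1 (2.98% and 0.236% of all genes), and 4 rose and 8 fell in replicate 2 (2.27% and 3.83%). Gadd45b was the member that rose in both, by 0.62 ± 0.10 (adjusted p = 0.0051) and 0.53 ± 0.09 (0.0051). Slc25a25, a mitochondrial carrier, rose by 1.07 ± 0.12 in replicate 1 (0.00072) and fell by 1.38 ± 0.17 in replicate 2 (0.0012). Rnf145, a ubiquitin ligase, likewise rose by 0.73 ± 0.11 (0.0056) and fell by 1.16 ± 0.12 (0.00041), so the replicates of these 2 genes moved in opposite directions.

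For IRF2KO against WT, 13 members were higher and 2 lower in replicate 1 (2.06% and 1.22% of all genes), and 16 and 3 in replicate 2 (2.06% and 2.25%). For DKO the counts were 26 and 2 (2.95% and 1.61%) and 32 and 2 (6.28% and 2.38%). IRF1KO gave 0 in both, against shares of all genes of 0% in replicate 1 and 0.00844% in each direction in replicate 2, and 9 and 23 members had an unadjusted p under 0.05 (4.71% and 6.89% of all genes). Arg2 fell in IRF2KO, with differences of −1.505 ± 0.18 (adjusted p = 0.0028) and −1.55 ± 0.14 (0.0005), and Lacc1 rose by 0.61 ± 0.12 (0.024) and 0.64 ± 0.11 (0.014). Egr2, a zinc finger factor, fell in IRF2KO (−1.59 ± 0.24, 0.008, and −1.15 ± 0.20, 0.013), and Slc15a3 rose by 0.89 ± 0.07 (0.00028) and 0.85 ± 0.12 (0.0038).

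The gap between replicate numbers was seen in media as well as with interferon. In the 4 media groups 46.6% of the members had replicate 1 above replicate 2 throughout, against 14.5% of all genes, and with IFNα and IFNγ the shares were 47.3% against 17.9% and 53.4% against 11.8%. Of the genes that rose with both LPS and IFNα in the single libraries, 16 of 45 tested (35.6%) had replicate 1 above replicate 2 in all 12 groups, so the gap was not particular to the members. Among the blocks it covered 5 of 10 NF-κB and IκB members, 6 of 14 adhesion members and 4 of 13 members from the feedback list. It covered 0 of the 7 members from the list of AP-1, EGR and other transcription factors. Their median gap was still 0.26 on the log2 scale, with a positive median in 9 of 12 groups. Egr2 had replicate 1 above replicate 2 in 11 of 12 groups.

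Examples, picked by the size of the gap or the role of the gene, were Hp, Sqstm1, Nfkbie, Tlr2 and Ccl17. Hp ran from 39.3 to 53.5 TPM in the 12 replicate 1 libraries (median 43.7) and from 13.1 to 28.3 TPM in the 12 replicate 2 libraries (median 19.5), without overlap. Sqstm1, the autophagy receptor p62, ran from 464 to 579 TPM (median 523) against 219 to 314 TPM (median 255), also without overlap. Nfkbie had a median of 8.23 TPM (4.64 to 21.1) against 3.54 TPM (2.34 to 9.74), Tlr2 280 TPM (187 to 378) against 156 TPM (114 to 245), and Ccl17 7.22 TPM (4.87 to 13.3) against 3.36 TPM (2.35 to 5.34). For these 3 the ranges overlapped across groups, while within every group replicate 1 was higher. The summed macrophage markers without the member Cd14 were higher in replicate 1 in 8 of 12 groups (1523 to 2326 TPM against 1406 to 2082 TPM), the dendritic cell markers in 9 of 12, and the lymphocyte and fibroblast lists stayed at or under 0.50 TPM. Their part in the gap was not tested, and what differed between the codes is not given in the sources used here.

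**Figure D5:**
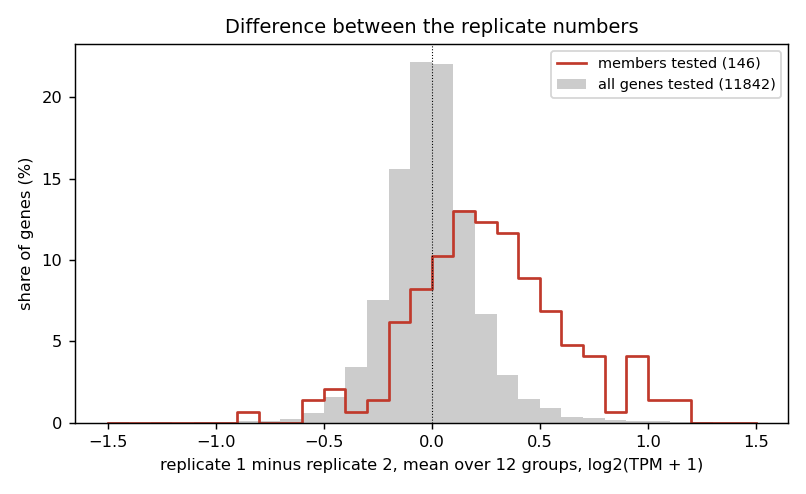
Share of genes (y axis, percent) by the mean over 12 groups of replicate 1 minus replicate 2 in log2(TPM + 1) (x axis), for the 146 tested members (red line) and all 11842 tested genes (grey bars). The members are shifted to the right, with a median of 0.26 against −0.01.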

How the data were processed

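RNA-seq values were taken from 1 table in which the authors deposited TPM for 30 libraries. Per the submitters' processing notes, bcl2fastq 2.20, Bowtie 0.12.2 and RSEM were used, with the builds mm10 and GRCm38 and no role given for each. TPM divides by transcript length and library total, so read depth and counting error are not known, and a gene's share can move when other genes change. The table has 41346 entries for 31427 symbols, of which 9919 stand in 2 entries, and entries were summed by symbol. All value columns matched a sample. Members and gene lists were chosen with earlier results of these data known, and the 24 names were left out as the selection rule states.

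The replicated libraries were fitted with limma 3.58.1 in R 4.3.3 on log2(TPM + 1), with 1 mean per group, a trended prior variance and 12 residual degrees of freedom, over the 11842 genes that reached 1 TPM in 2 or more of the 24 libraries. The 18 comparisons were two-sided, each with Benjamini-Hochberg adjustment over all genes and calls below 0.05. Comparisons with the same media or WT libraries share those controls. Replicate numbers go with date-like codes in the titles and were taken to pair the samples: for 56 of the 66 possible group pairs the deviations of same-numbered samples had a correlation over 0.1, with a median of 0.233 and a range of −0.160 to 0.481. Within a code each group has a single library, so the 18 comparisons have no test there, and a fit of genotype plus treatment was used.

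Named genes are the 12 members with the largest smaller-of-2 LPS difference, list members (values for at most 6 per list), up to 6 called members per direction and comparison, the 3 genes on each side of each threshold, the 4 members per direction with the largest IRF2KO minus WT difference in LPS gain, and members at 0 TPM at 0 h. A single gene within this rule is not reported here, so 3 members stand for the 4 with the largest upward difference. Others were picked after their values were seen, as were members called only with the block or within a replicate number. Other settings tried were TMM and quantile scaling, a pseudocount of 0.1 or 5, a filter on a mean of 5 TPM, no filter, the replicate block, the compared groups alone, and leaving out each library. Promoters come from RefSeq (GRCm38.p6), and coordinates of all 150 members were matched by name. Python 3.11.15, numpy 2.4.6, pandas 2.3.3 and matplotlib 3.10.9 were used.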

Additional observations from a re-analysis of the deposited data

How the results depend on the processing

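The number of genes that meet the rule was 147 with a pseudocount of 0.1 (141 of them members), 127 with 5 (115 members), 170 with TMM scaling (all 150 members) and 150 with each table entry taken on its own. With the replicate block, the number of members called in either direction went from 1 to 3 (IFNα in IRF2KO), 0 to 3 (IFNα in DKO), 3 to 11 (IFNγ in WT), 6 to 15 (IFNγ in IRF1KO), 2 to 13 (IFNγ in IRF2KO), 4 to 15 (IFNγ in DKO), 1 to 5 (IRF2KO against WT in media), 2 to 6 (DKO against WT in media) and 2 to 11 (IFNγ against IFNα in WT), and it moved none of the other counts. Fitted on the compared groups alone, which leaves fewer degrees of freedom, the counts were 0 for IFNα in WT, IRF1KO and IRF2KO, 0, 1, 4 and 2 for IFNγ in WT, IRF1KO, IRF2KO and DKO, and 0 for IRF2KO or DKO against WT in media and for IFNγ against IFNα. Without a filter, 3 members were called for IFNγ in IRF1KO and 1 in IRF2KO, and TMM or quantile scaling gave 1 for IFNα in DKO. Leaving out 1 library at a time, which assumes that the lone library varies like the other groups, gave 0 to 1 members for IFNα in WT, IRF1KO and IRF2KO, 1 to 4, 1 to 4, 0 to 2 and 0 to 2 for IFNγ in WT, IRF1KO, IRF2KO and DKO, 1 to 1 and 0 to 1 for IRF2KO and DKO against WT, and 1 to 5 for IFNγ against IFNα. The 2 scalings of the pooled library counts and of the replicate number count were chosen after seeing the data. The IFNα libraries were all above media for 2 members with either scaling, the IFNγ libraries all below for 1 with quantile scaling, and replicate 1 was above replicate 2 in every group for 56 and 57 members. Of 23 differences named for a gene, all kept their direction in every alternative, and 188 of 275 refits kept the call, with Rnd3 in IRF1KO called in each. TPM holds no counts, so what depth limits cannot be stated, and with 2 libraries a group a difference that missed the threshold is not shown to be absent.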
